A study of Mus musculus with 9 samples.

Results

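The genes described here are Aqp8 and Kcnn3, 2 of the 471 genes that the authors listed as changed when EHE17 cells were given MGH-CP1. They encode membrane channels, and they were chosen by name because their counts and FPKM in MGH-CP1 and vehicle libraries lay apart in opposite directions. Their values in that comparison are therefore a description and carry no test. EHE17 cells are mouse endothelial tumour cells of genotype TC+/+ Cdkn2a -/-, which all groups share. RNA captured on poly-T beads was sequenced. Per the labels' protocols dTTP went into the second strand, which leaves no strand mark. The groups used were MGH-CP1 at 10 µM for 16 h and DMSO vehicle, with 3 biological replicates each, all from this 1 line. A further group given 300 nM dinaciclib for 16 h has a table of its own, with 251 genes and named for cancer. Neither gene is listed in it, so their levels with dinaciclib were not analysed here. Absence from it is not read as lack of change. MGH-CP1 keeps TEAD transcription factors, through which YAP and TAZ act on genes, from being palmitoylated, and the comparison asks which transcripts change with it.

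Aquaporins are membrane pores that let water cross along osmotic gradients. Aquaporin 8 also passes ammonia and hydrogen peroxide, and in rodents it is known mainly from secretory and absorptive epithelia of gut, pancreas and liver. Kcnn3 encodes SK3, a potassium channel of small conductance that opens when calcium binds the calmodulin held on its tail. In endothelium SK3 is known for the hyperpolarisation that relaxes the underlying smooth muscle.

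Aqp8 (ENSMUSG00000030762) lies on the plus strand of mouse chromosome 7, from 123462291 to 123468004 in GRCm38, and spans 5714 bases. Kcnn3 (ENSMUSG00000000794) lies on the plus strand of chromosome 3, from 89520164 to 89675132, and spans 154969 bases. No other gene in GENCODE M21 overlaps either of them. None of the 14 annotated genes within 500 kb of Aqp8, and none of the 66 within 500 kb of Kcnn3, was listed as changed with MGH-CP1. Only 471 genes of the whole genome were listed, so no meaning is given to their absence there.

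The promoters are shown because MGH-CP1 acts on TEAD proteins, whose best-known binding letters are GGAATG. Both are RefSeq windows of 300 bases in GRCm38.p6, 250 before and 50 after the annotated start, with matches to GGAATG or its reverse complement CATTCC in capitals.
Aqp8, chr7:123462044-123462343, plus strand: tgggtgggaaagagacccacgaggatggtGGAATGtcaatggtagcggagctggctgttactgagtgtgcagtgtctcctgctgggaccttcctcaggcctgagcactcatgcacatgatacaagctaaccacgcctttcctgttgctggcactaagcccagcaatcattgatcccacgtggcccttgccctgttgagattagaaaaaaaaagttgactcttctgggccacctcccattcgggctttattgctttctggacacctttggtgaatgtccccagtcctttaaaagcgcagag
Kcnn3, chr3:89519914-89520213, plus strand: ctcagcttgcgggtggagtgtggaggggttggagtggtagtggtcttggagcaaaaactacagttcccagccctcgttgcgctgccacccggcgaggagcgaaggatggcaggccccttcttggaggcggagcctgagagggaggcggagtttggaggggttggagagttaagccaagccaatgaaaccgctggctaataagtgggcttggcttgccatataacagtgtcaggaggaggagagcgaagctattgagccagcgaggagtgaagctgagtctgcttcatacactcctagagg
The Aqp8 window held 1 match, at bases -221 to -216 before the start. The Kcnn3 window held 0. Of 32851 such windows of mouse genes, 14.7% held the letters on either strand. The AP-1 letters TGANTCA, which read alike on both strands, were in neither window and in 7.81% of all windows. The Aqp8 window had 6 CpG dinucleotides and the Kcnn3 window 11, against a median of 7. A match of letters is a description of the sequence and not a site shown to be bound.

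Aqp8 was higher in every MGH-CP1 library than in any vehicle library. Such separation is not particular to it, since all listed genes were picked on these libraries. The 18 further genes from the channel and transporter lists below also had separate ranges. It had 1110, 1122 and 989 counts in MGH-CP1 replicates 1, 2 and 3, against 365, 364 and 529 counts in the vehicle replicates. MGH-CP1 libraries held 19934012 to 24310817 counts in all and vehicle libraries 31852117 to 40020833, so the raw counts understate the difference. Divided by the authors' size factors, the normalised counts were 1286, 1585 and 1176 with MGH-CP1, against 322, 299 and 369 in vehicle. The lowest MGH-CP1 library was 3.18 times the highest vehicle library. The means were 1349 ± 212 and 330.01 ± 35.9 (SD, n = 3 each), a ratio of 4.09 and a log2 change of 2.03 with SE 0.163 in edgeR. Replicates differed by up to 1.35 times with MGH-CP1 and 1.24 times in vehicle, both less than the gap between the groups.

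Kcnn3 was lower in every MGH-CP1 library than in any vehicle library, a separation with the same limit as that of Aqp8. It had 23, 13 and 26 counts with MGH-CP1, against 85, 154 and 172 counts in vehicle. The 13 counts of MGH-CP1 replicate 2 carry a 95% Poisson interval of 6.92 to 22.2, which covers counting error only. The normalised counts were 26.6, 18.4 and 30.9 with MGH-CP1, against 75.0, 126 and 120.05 in vehicle. The lowest vehicle library was 2.43 times the highest MGH-CP1 library. The means were 25.3 ± 6.38 and 107 ± 28.1 (SD, n = 3 each), so that vehicle was 4.23 times MGH-CP1, with a log2 change of -2.07 and SE 0.287 in edgeR. Replicate spread in MGH-CP1 was close to counting error, at 25.2% of the mean where counting alone gives 22.0%. In vehicle it was 26.2%, where counting gives 8.54%, and replicate 1 was the low one. In these bulk libraries, fewer cells with the transcript and less of it per cell cannot be told apart.

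**Figure D1:**
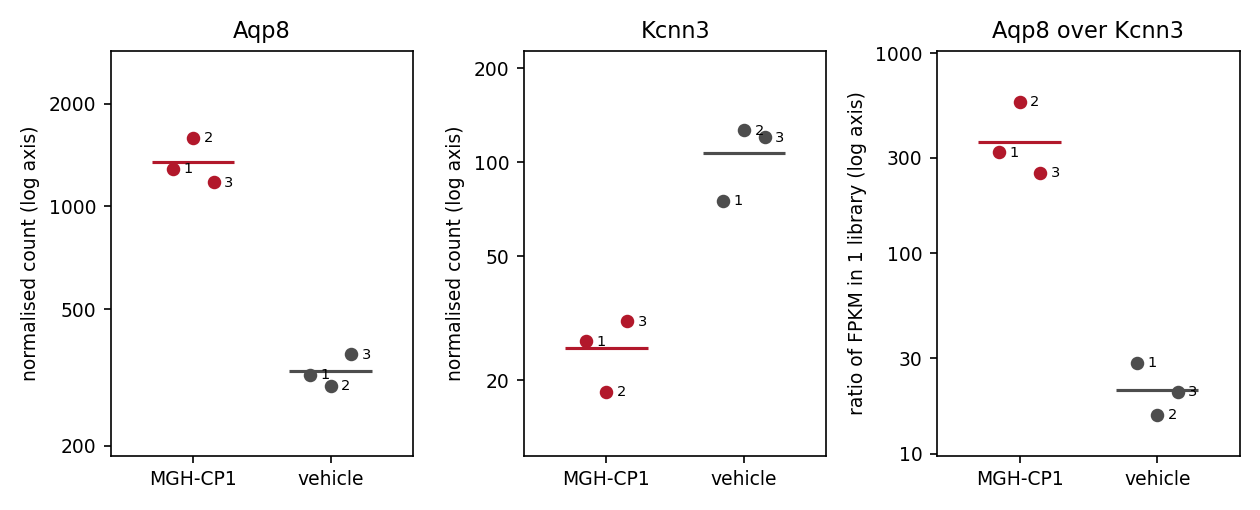
Normalised counts of Aqp8 and Kcnn3, and the ratio of their FPKM, in each library (points numbered by replicate, log axes). Lines are group means, geometric for the ratio. In each panel the 3 MGH-CP1 libraries and the 3 vehicle libraries occupy separate ranges. The 18 further genes from the channel and transporter lists also had separate ranges.

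Per length, Aqp8 was by far the more abundant transcript in both groups. Its FPKM was 28.9, 35.6 and 26.4 with MGH-CP1, against 7.25, 6.74 and 8.36 in vehicle. That of Kcnn3 was 0.0905, 0.0624 and 0.105 with MGH-CP1, against 0.255, 0.431 and 0.411 in vehicle. Among the 211 protein-coding genes in the table, Aqp8 ranked 7th by mean FPKM with MGH-CP1 and 16th in vehicle. Kcnn3 ranked 178th with MGH-CP1 and 112th in vehicle, where its mean was below the median of 0.493 FPKM.

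The level of Kcnn3 depends on the length it is divided by. The authors used 10451 bases, which equals the union of all exons annotated in M21. The only coding transcript, Kcnn3-201, has 8 exons and 2884 bases, with 2196 coding bases before the stop. The rest comes mostly from Kcnn3-202, a retained-intron transcript of 8314 bases at the 3' end of the gene. If all reads came from Kcnn3-201, its mean FPKM would be 0.312 ± 0.0786 with MGH-CP1 and 1.33 ± 0.349 in vehicle (SD, n = 3 each). Gene counts do not show which transcript the reads came from, so the lower count cannot be assigned to the coding one. For Aqp8 the same step changes little: its length of 1581 bases is 1.06 times that of Aqp8-201, which has 6 exons.

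The ratio of Aqp8 to Kcnn3 within a library does not depend on the library's scale. By FPKM it was 319, 571 and 251 with MGH-CP1, against 28.4, 15.6 and 20.3 in vehicle. The geometric means were 358 and 20.8, a 17.2-fold difference or 4.10 on the log2 scale. The SD of the log2 ratio was 0.608 with MGH-CP1 and 0.432 in vehicle. Because both genes had been chosen for moving apart, this ratio carries no test either.

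MGH-CP1 replicate 2 had the highest Aqp8 and the lowest Kcnn3 of its group, and replicate 3 the lowest Aqp8 and the highest Kcnn3. The share of each library's counts taken by all listed genes ran in that order too, at 1.56%, 1.95% and 1.05% in MGH-CP1 replicates 1, 2 and 3, against 0.708%, 0.571% and 0.522% in vehicle. The rRNA gene CT010467.1 is itself a listed gene, so its counts are part of that share. Its own share ran in the same order, at 0.614%, 0.803% and 0.342% with MGH-CP1, against 0.125%, 0.0554% and 0.0402% in vehicle. Vehicle replicate 1, the lowest of its group for Kcnn3, had the highest of both shares in vehicle. Aqp8 did not follow them in vehicle, where it was highest in replicate 3, the library with the lowest of both shares. The share of the nuclear RNA Malat1 ran in another order, at 0.0403%, 0.0493% and 0.04999% with MGH-CP1, against 0.00661%, 0.0119% and 0.00999% in vehicle replicates 1, 2 and 3. The part of these shares in the values of Aqp8 and Kcnn3 was not tested. Without MGH-CP1 replicate 2 the log2 changes were 1.90 for Aqp8 and -1.90 for Kcnn3. The labels name no batch.

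The table holds only genes past an absolute log2 change of 1 and under an adjusted p of 0.05 in the authors' comparison. The 2 channels were therefore set against other changed genes. Of its 471 genes, 355 had enough counts for edgeR's quasi-likelihood test. Adjusted by Benjamini-Hochberg, 100% of these were called, 49.3% higher and 50.7% lower. A share near 100% was set in advance, since the genes had been picked on the same libraries. Aqp8 had the 44th largest of 175 rises by fitted log2 change, or the 15th of 86 among protein-coding genes. Kcnn3 had the 32nd largest of 180 falls, or the 13th of 101 among protein-coding genes. The median log2 change was 1.48 over the rises and -1.42 over the falls, and the largest were 5.17 and -4.51.

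**Figure D2:**
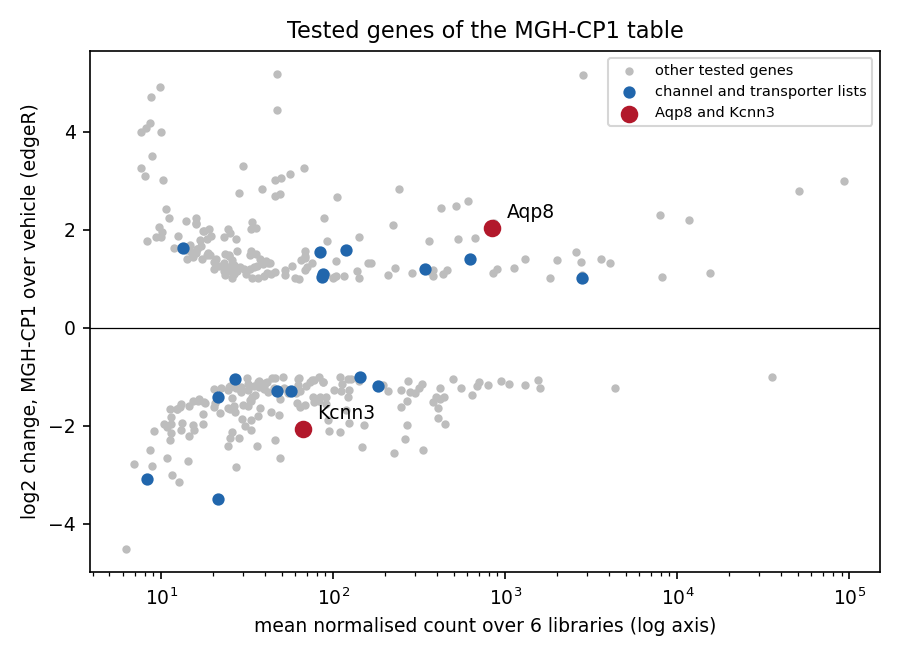
Fitted log2 change with MGH-CP1 against mean normalised count (log axis) for the 355 tested genes. Aqp8 and Kcnn3 are red, other members of the channel and transporter lists are blue, and the rest are grey. The band around 0 is empty because the authors listed only genes past their fold limit.

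The genes with the most similar profiles were sought among 182 other protein-coding genes with a mean normalised count of at least 10. Likeness was the root mean square difference of log2(normalised count + 1), centred on the vehicle mean, over the 6 libraries. Since every listed gene had been picked for a difference between these groups, likeness here is mostly likeness in the size of the change.

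The 5 genes nearest to Aqp8 were Fst, Chchd10, Nptx1, Slco5a1 and 5730596B20Rik, at 0.254, 0.324, 0.355, 0.374 and 0.396 log2 units. Fst, which encodes the activin antagonist follistatin, had 26.2 ± 6.71 normalised counts with MGH-CP1 and 5.65 ± 2.08 in vehicle (SD, n = 3 each). The mitochondrial protein gene Chchd10 had 53.3 ± 10.9 with MGH-CP1 and 13.03 ± 2.39 in vehicle, a ratio of 4.09 like that of Aqp8. Both stood at a small part of the count of Aqp8. Slco5a1, of the organic anion transporter family, is also a member of the solute carrier list below.

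The 5 genes nearest to Kcnn3 were Phospho1, Col15a1, Nckap1l, Pde1b and Fbxl22, at 0.217, 0.219, 0.332, 0.387 and 0.406 log2 units. The phosphatase gene Phospho1, with vehicle at 4.31 times MGH-CP1, and the basement membrane collagen gene Col15a1, at 3.94 times, were about equally near. Pde1b encodes a cyclic nucleotide phosphodiesterase that, like SK3, is switched on by calcium and calmodulin. It had 55.9 ± 8.08 normalised counts with MGH-CP1 and 180 ± 8.05 in vehicle (SD, n = 3 each). Fbxl22, an F-box protein gene, had 21.7 ± 4.80 with MGH-CP1 and 74.4 ± 6.28 in vehicle. Kcnn3 was lower than all 5 of these genes, relative to its own vehicle mean, in MGH-CP1 replicate 2 and in vehicle replicate 1.

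**Figure D3:**
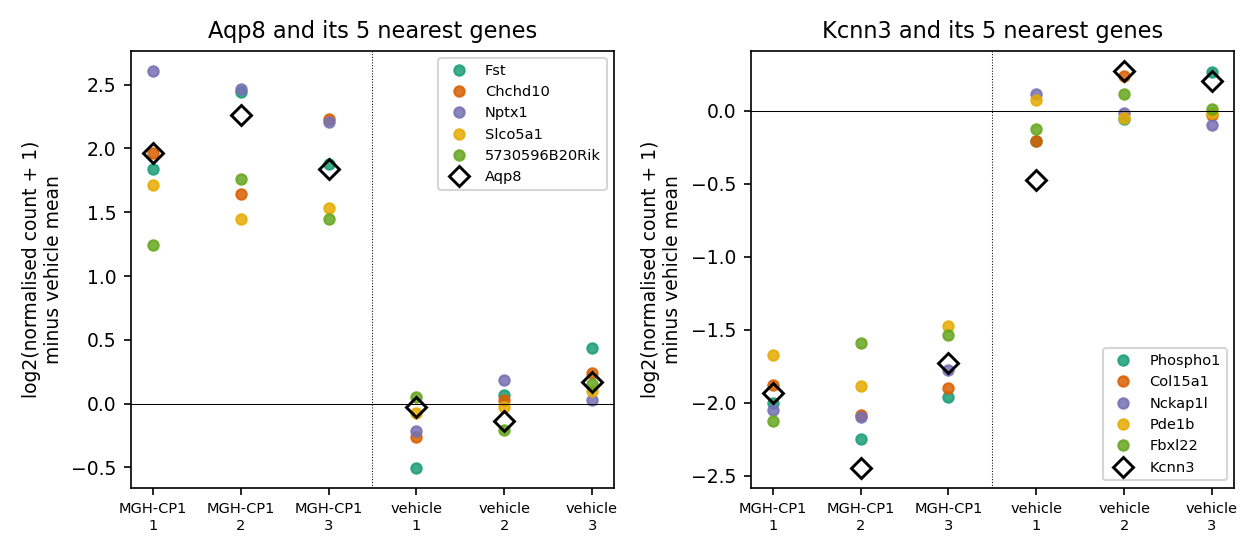
Log2(normalised count + 1) minus the vehicle mean in each of the 6 libraries, for Aqp8 (left) and Kcnn3 (right) as open diamonds and for the 5 genes nearest to each as coloured points. Kcnn3 is the lowest point in MGH-CP1 replicate 2 and in vehicle replicate 1.

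Other channel, pump and transporter genes were looked up in 10 lists that name 840 annotated genes. Of the 12 aquaporin genes only Aqp8 was in the table, and of the 16 genes of calcium-activated potassium channels and their subunits only Kcnn3. Over all lists 20 of the 840 genes were in the table, so a list with 1 or no gene there is given no meaning. In all lists 18 further genes were in the table, 16 of them had enough counts, and 8 rose and 8 fell (edgeR quasi-likelihood, Benjamini-Hochberg). That is 50% higher, beside 49.3% over the 355 tested genes. Without the count filter 10 of the 18 rose and 8 fell, beside 270 and 201 of all 471 genes. The median log2 change was 0.0057 over the 16 and -1.01 over all 355 tested genes, values that fall in or beside the empty band and describe no gene. The authors had picked these genes on the same libraries, so the calls are no independent evidence.

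Of genes for cation channels, 1 of 4 tested rose and 3 fell. P2rx2, an ATP-gated channel, had 129, 96.1 and 132 normalised counts with MGH-CP1, against 44.1, 59.9 and 62.8 in vehicle. Its relative P2rx1 had 0, 8.48 and 2.38 with MGH-CP1, against 33.5, 32.8 and 50.3 in vehicle. These ATP-gated channels thus lay apart in opposite directions, as Aqp8 and Kcnn3 did. The log2 change of P2rx1 was -3.49, its SE 0.614 and its adjusted p 0.000454 (edgeR quasi-likelihood, Benjamini-Hochberg). It was -2.88 without MGH-CP1 replicate 1 and -4.93 without replicate 2. Cacng1, a calcium channel subunit gene of skeletal muscle, fell to 32.4 ± 11.1 with MGH-CP1, against 80.6 ± 25.6 in vehicle (SD, n = 3 each).

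Trpm5 encodes a cation channel that, like SK3, is opened by calcium inside the cell. It had 2.32, 22.6 and 10.7 normalised counts with MGH-CP1, against 26.5, 27.9 and 37.7 in vehicle. It fell by 1.42 on the log2 scale, with an edgeR adjusted p (Benjamini-Hochberg) of 0.0204. The p of that edgeR test before adjustment was also 0.0204. It was the largest p of the 355 tested genes, and the adjustment leaves the largest p as it is. The call was lost without MGH-CP1 replicate 1 or 3 or vehicle replicate 3, where the same edgeR test gave adjusted p of 0.0647, 0.0538 and 0.0507, and without MGH-CP1 replicate 2 the log2 change was -2.23. The calcium release channel gene Ryr1 had too few counts to test, at 7.10 ± 3.09 with MGH-CP1 and 0.800 ± 0.0938 in vehicle.

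The chloride channel gene Cftr rose to 117 ± 19.3 with MGH-CP1, against 56.3 ± 15.1 in vehicle, while Clic5, of the chloride intracellular channel family, fell to 110 ± 14.1, against 251 ± 10.04. Fxyd6, which encodes a regulator of the sodium-potassium pump, fell to 94.3 ± 15.7, against 190.04 ± 11.2. The list of other potassium channels matched 1 row by its symbol, Kcnq1ot1, which is a noncoding antisense RNA of the Kcnq1 locus and no channel gene. It rose to 126 ± 15.2 with MGH-CP1, against 42.4 ± 8.70 in vehicle, and in libraries without strand its reads cannot be told from those of Kcnq1. No gene for gap junction proteins was in the table.

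Of 7 solute carrier genes, 4 rose and 3 fell. Slc7a11, the cystine importer, reached 901 ± 292 with MGH-CP1 and 340 ± 60.04 in vehicle. The cationic amino acid transporter gene Slc7a2 reached 474 ± 31.1 with MGH-CP1 and 206 ± 14.4 in vehicle, and Slco5a1 178 ± 17.02 with MGH-CP1 and 59.4 ± 3.66 in vehicle. Slc24a1, which encodes an exchanger of sodium for calcium and potassium, fell to 27.2 ± 3.49, against 66.4 ± 5.39, and the prostaglandin transporter gene Slco2a1 fell to 17.7 ± 4.77, against 36.1 ± 4.84. Slc35f2 fell to 1.72 ± 0.954, against 14.9 ± 5.86, and it had too few counts to be tested when any vehicle replicate was left out. The 7th, the iron exporter gene Slc40a1, rose by the least, 1.02 on the log2 scale.

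Aquaporin 8 passes hydrogen peroxide, and of 39 genes that make or remove it, Nox3, an NADPH oxidase gene, was the only one in the table. It rose to 16.2, 24.01 and 21.4 normalised counts with MGH-CP1, against 2.65, 7.39 and 9.07 in vehicle. Of 31 genes for endothelial hyperpolarisation and the partners of SK3, the muscarinic receptor gene Chrm3 was the only one in the table and had too few counts to test, at 13.4 ± 6.96 with MGH-CP1 and 2.03 ± 1.77 in vehicle. With dinaciclib, Ppp2r1a, a scaffold of the phosphatase that sits on SK channels, had 23625 ± 3333 normalised counts and vehicle 2925 ± 161 (SD, n = 3 each), a ratio of 8.08. The solute carrier gene Slc45a3 stood at 0.302 times vehicle there. The 2 tables were normalised separately, and dinaciclib libraries held only 2541162 to 3316779 counts, against 31852117 to 40020833 in vehicle. Size factors in that table were 0.270 to 0.350 with dinaciclib and 3.08 to 3.88 in vehicle. Both ratios rest on this scaling.

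**Figure D4:**
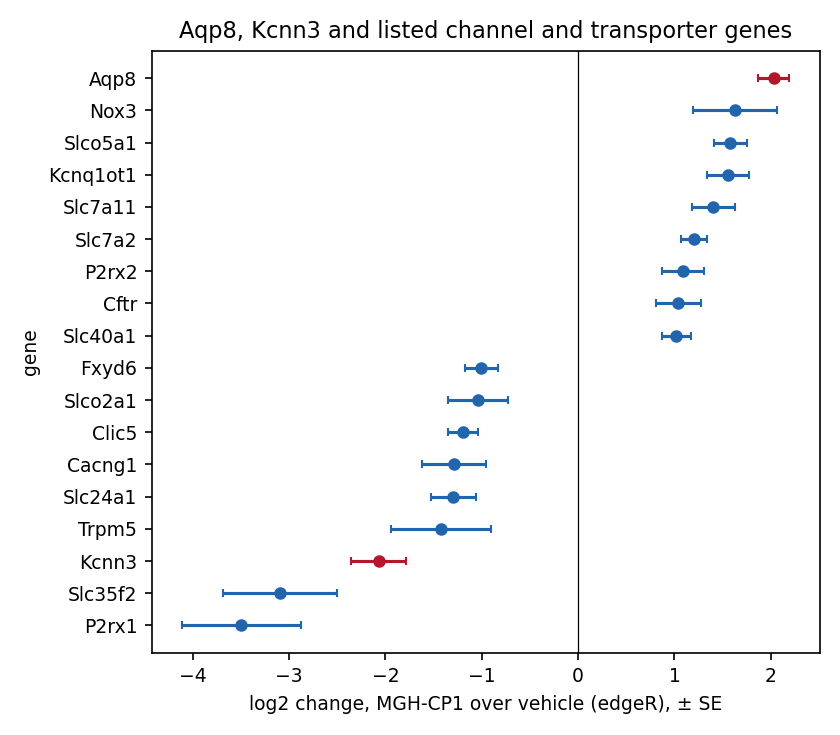
Fitted log2 change with MGH-CP1, with its standard error, for Aqp8 and Kcnn3 (red) and the 16 tested genes of the channel and transporter lists (blue). Aqp8 is the highest of the 18 drawn, and Kcnn3 is the lowest but for P2rx1 and Slc35f2. Ryr1 and Chrm3 had too few counts to test and are not drawn. Their ratios of mean normalised counts were larger, at 8.88 and 6.63, against 4.09 for Aqp8.

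Among these 20 genes Aqp8 had the highest FPKM in both groups. In vehicle it stood at 7.45 ± 0.828 FPKM (SD, n = 3), and the mean of the next gene, Slc40a1, at 7.27 ± 0.101 FPKM, lay within that spread. With MGH-CP1 Aqp8 stood at 30.3 ± 4.75 FPKM and Slc40a1 at 14.6 ± 0.999 FPKM. Kcnn3 was 13th of the 20 with MGH-CP1 and 11th in vehicle.

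Of 13 endothelial markers, Vwf was in the table, at 20.5 ± 9.20 with MGH-CP1 and 66.9 ± 9.07 in vehicle. Kdr and Fli1 could be read in vehicle from the dinaciclib table, at 87.0 to 92.3 and 31.6 to 32.7 FPKM. Of 6 myeloid markers, Cd68 stood at 54.8 ± 17.6 with MGH-CP1 and 12.2 ± 5.08 in vehicle, and Lyz2 at 92.8 ± 25.7 with MGH-CP1 and 187 ± 16.9 in vehicle. No epithelial, neuronal, mural or fibroblast marker on the lists was in the table, and the levels of the other markers were not analysed here.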

How the data were processed

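The submitters' processing notes name DESeq2 (1.20.0), featureCounts (1.5.0-p3), HISAT2 (2.0.5) and fastp. The build is not given in the sources used here, and GRCm38 coordinates were used since 464 (98.5%) of the table's 471 genes have identical bounds in GENCODE M21. Per the file headers, the tables used here give raw counts, FPKM and a normalised signal for every listed gene and library, and for no other gene. On the values, that signal is the count over a size factor. The authors' deposited log2 fold changes and p-values decided which genes the table holds and are not printed here. Size factors and total counts were recovered from these columns, with 100% of values within 0.1% of the library's figure.

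Counts were fitted in edgeR 4.0.16 (R 4.3.3) with two-sided quasi-likelihood tests on the 6 libraries of the MGH-CP1 table, with the authors' size factors as library scale, filterByExpr at a minimum count of 10 and Benjamini-Hochberg adjustment at 0.05. Standard errors are the log2 change over the root of the F statistic. TMM assumes that most genes do not change, which such a table breaks, so it was an alternative, as were total counts, DESeq2 1.42.0, no filter, the replicate number as a block and leaving out each replicate. Run on simulated counts for 355 genes, drawn from real means and depths, it called 3.87% of 155 genes left unchanged, 79% of 100 changed by a log2 of 1 and 99% of 100 changed by a log2 of 2, which is no error rate for a table of picked genes.

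The rule named Aqp8, Kcnn3, the 5 nearest profiles of each, listed genes within 500 kb, and up to 6 per list. Slc40a1, Slc45a3, Malat1 and CT010467.1 fall outside it and were chosen after their values were seen, and the cell type markers come from lists of their own. Aqp8, Kcnn3 and the lists were chosen with earlier results of these data known. Promoters are RefSeq's (GRCm38.p6), and both genes matched 1 window each. Figures were drawn with matplotlib 3.10.9. Protein sequences were not used here, and 1 gene of the lists is not reported here.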

Additional observations from a re-analysis of the deposited data

How the results depend on the processing

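Aqp8 stayed higher and Kcnn3 lower with MGH-CP1 under every alternative run. Both had been chosen for these directions on the same libraries, so this was set in advance and is no independent evidence. The log2 change of Aqp8 was 2.03, and 1.69 with TMM factors over the listed genes. TMM shifted all genes by a median of -0.32, and relative to that shift Aqp8 stood at 2.01 and Kcnn3 at -2.06. Leaving out 1 replicate gave 1.90 to 2.12 for Aqp8, -2.27 to -1.90 for Kcnn3 and 3.77 to 4.36 for the log2 difference of their ratio. The calls numbered 352 of 354 tested genes with TMM and 355 of 355 with total counts, against 355 of 355. They numbered 471 of 471 without the count filter and with DESeq2. Without 1 replicate 365 to 385 genes were called, where 368 to 393 passed the filter. Of the channel and transporter genes 14 to 18 were called of 15 to 18 tested, against 16 of 16. With the replicate block 355 genes were called, and the log2 changes were 2.02 for Aqp8 and -2.04 for Kcnn3. Same-numbered libraries deviated together with correlations of 0.0111, -0.123 and 0.0352 over 341 genes. For differently numbered libraries the correlations ran from -0.1285 to 0.1119. No pairing by number was seen in these picked genes, and a shared batch was not tested. Kcnn3 rests on 13 to 26 counts per MGH-CP1 library, which limits its precision.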
